A study of Caenorhabditis elegans with 2 samples.

Results

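The small nuclear RNA (snRNA) genes of *Caenorhabditis elegans* are described here by where they stand in a map of NHR-77, a nuclear hormone receptor, in L2 larvae. The members are all 129 genes that the Ensembl annotation of the genome WBcel235 gives the biotype snRNA, of 46926 annotated genes. Each was assigned the region with the highest peak caller score whose summit lay within 500 bp of the gene, together with the rank of that region in the list of both replicates pooled and in the list of each replicate. Chromatin immunoprecipitation sequencing (ChIP-seq), which recovers DNA fragments bound by a chosen protein, was performed on whole worms of strain OP353. These worms were mixed-sex L2 larvae with the genotype unc-119(tm4063) III; wgIs353, in which the wgIs353 insertion supplies NHR-77 fused to eGFP. There was 1 group with 2 biological replicates, every worm carried both the unc-119 allele and the insertion, and no control sample or other condition was analysed here. The labels name neither the promoter that drives the fusion nor its copy number, and whole animals were used, so cell types are mixed.

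Small nuclear RNAs are short non-coding RNAs that form, with proteins, the particles that carry out splicing. In nematodes a further set, the spliced-leader RNAs, donates a short leader to the 5′ end of many messenger RNAs by trans-splicing: SL1 is the common leader, and SL2 is added mostly to downstream genes of operons. In animals, snRNA genes are short units whose promoters are recognised by the SNAPc complex through a proximal sequence element shortly before the start, and most are transcribed by RNA polymerase II, while U6 genes, which carry a TATA box, are transcribed by RNA polymerase III.

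The reference names 18 sls-2 genes, which encode SL2 RNAs, 12 sls-1 genes, which encode SL1 RNAs, and 10 smy genes, which encode SmY RNAs, a class of nematode RNA linked to trans-splicing. It gives no U number to the spliceosomal genes, so the rest were grouped by sequence at 75% identity and each family is called by its highest-ranked member, or by its first member where none had a region. The sup-6 family had 13 genes, and sup-6 and sup-39 are known from suppressor mutations in U1 snRNA genes. Of these 13, 12 held ACTTACCTG, the complement of a 5′ splice site that U1 snRNA carries near its 5′ end. The W05B2.8 family had 24 genes. GTAGTA, known from the part of U2 snRNA that pairs with the branch site, was found in 18 of 19 genes of the F08G2.10 family. GCCTTTTAC, known from a loop of U5 snRNA, was found in 11 of 12 genes of the F38E11.10 family. The C52E4.8 family had 5 genes, the B0213.21 family 4, and 12 genes were left ungrouped. These letters were picked after the sequences were seen, and no type was assigned from them.

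The sequences below show what sets the families apart, with a leader or one of these strings in capitals. In sls-1.2 and sls-2.8 the capitals mark the leader, of 22 and 23 bases, the part that is joined to messenger RNAs.
sls-1.2, first 40 bases, chrV:17131122-17131161, minus strand: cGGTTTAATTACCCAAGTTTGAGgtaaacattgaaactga
sls-2.8, first 40 bases, chrIII:12250465-12250504, plus strand: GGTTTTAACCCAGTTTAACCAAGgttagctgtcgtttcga
sup-6, 29 bases of the gene, chrII:12944939-12944967, minus strand: aaACTTACCTGgctgggggttatttcgtg

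The promoters of the genes at thresholded peaks whose summit lay near the gene start are shown next, in order of rank, except those of sls-2.4, which is not printed, and of mir-1831, which lies inside sup-39. Each is the 90 bases before the annotated gene start, read 5′ to 3′ on the gene strand of WBcel235. Capitals mark the word AACCCG, the pattern TGTCNG, in which N is any base, and the TATA-like word TATATAA.
sls-2.1, chrII:5844775-5844864, plus strand: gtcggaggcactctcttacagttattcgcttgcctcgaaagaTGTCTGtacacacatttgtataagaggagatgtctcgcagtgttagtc
sls-2.8, chrIII:12250375-12250464, plus strand: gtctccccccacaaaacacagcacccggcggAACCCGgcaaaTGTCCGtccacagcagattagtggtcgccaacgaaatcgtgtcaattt
W05B2.8, chrIII:10989589-10989678, plus strand: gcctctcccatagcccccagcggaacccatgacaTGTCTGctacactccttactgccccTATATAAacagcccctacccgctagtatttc
C52E4.8, chrV:11980028-11980117, plus strand: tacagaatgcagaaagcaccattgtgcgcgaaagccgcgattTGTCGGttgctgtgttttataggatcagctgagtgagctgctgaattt
sls-2.2, chrII:5543508-5543597, plus strand: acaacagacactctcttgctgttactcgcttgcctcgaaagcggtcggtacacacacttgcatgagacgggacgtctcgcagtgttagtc
sup-6, chrII:12944968-12945057, minus strand: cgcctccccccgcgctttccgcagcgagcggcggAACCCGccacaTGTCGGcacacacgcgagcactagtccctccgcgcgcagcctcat
F38E11.10, chrIV:9444552-9444641, plus strand: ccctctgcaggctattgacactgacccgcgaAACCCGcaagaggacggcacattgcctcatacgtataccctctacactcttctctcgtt
sup-39, chrII:6968559-6968648, minus strand: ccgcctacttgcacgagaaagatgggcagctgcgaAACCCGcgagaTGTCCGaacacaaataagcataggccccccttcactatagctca
sls-1.2, chrV:17131162-17131251, minus strand: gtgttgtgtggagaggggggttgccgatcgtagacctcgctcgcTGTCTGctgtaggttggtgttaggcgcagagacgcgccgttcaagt
The promoter of sls-2.2 holds none of the 3 patterns on its gene strand in these bases. The last of these, an SL1 gene with no region in any list, is shown for contrast.

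Of the 129 snRNA genes, 13 lay at one of the 415 peaks that passed the authors' threshold. That is 10.1% (95% Clopper-Pearson interval 5.48 to 16.6, counting error only), against 1.45% of all annotated genes by the same search. These peaks are exactly the 415 highest of the 30000 pooled regions. For a region of any rank, 57 of the snRNA genes, 44.2%, had one within reach, against 46.6% of all genes. The search covers the whole gene, and snRNA genes are only 22 to 187 bases long, so longer genes had wider windows. From the gene start, the share was 43.4% for snRNA genes and 34.0% for protein-coding genes. It was 34.5% for miRNA, 28.0% for piRNA, 51.4% for snoRNA and 62.8% for tRNA genes. Ranks in the whole-gene search also differed. The median rank of the 57 was 4942, against 10861 over the 21852 annotated genes with a region. Their lower quartile was 512, against 4408. The depth of the libraries is unknown from the files, so a gene without a region is one with none listed, not one shown to be unbound.

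Some of the 129 snRNA genes also ranked high in each replicate, though not always the same ones. Among the 415 highest regions of replicate 1 stood 10 snRNA genes, against a background of 1.37% of all genes. Replicate 2 had 11, with a background of 1.40%, and 8 genes were in both sets, with a background of 0.629%. Ranks are compared here because the score of the peak caller has no stated scale.

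Among classes of gene measured from the gene start, the share at a thresholded peak was 10.1% for snRNA genes. It was 6.94% for the 346 snoRNA genes (interval 4.49 to 10.1) and 3.63% for the 634 tRNA genes (interval 2.31 to 5.39). The snRNA and snoRNA intervals overlapped. The share was 1.53% for the 261 miRNA genes (interval 0.419 to 3.88), 0.0781% for the 15363 piRNA genes (interval 0.0404 to 0.136) and 1.58% for the 19985 protein-coding genes. Neighbouring genes can share a peak, so genes within a class are not independent.

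**Figure D1:**
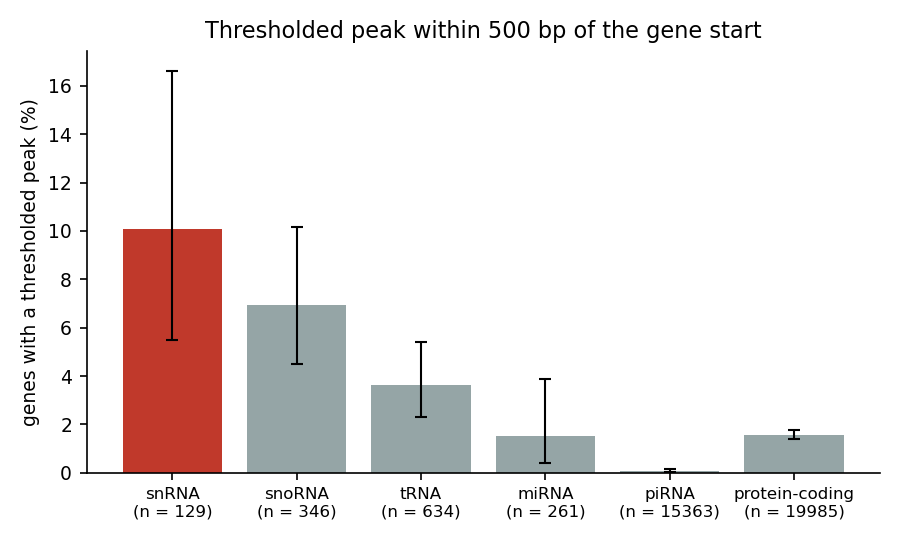
The bars give the percentage of genes of each class with a thresholded peak within 500 bp of the gene start, with 95% Clopper-Pearson intervals for counting error, and n is the number of annotated genes. The snRNA bar stands at 10.1%, the snoRNA bar at 6.94% and the protein-coding bar at 1.58%.

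The SL2 genes stood highest. Of the 18 sls-2 genes, 13 (72.2%) had a pooled region, against 46.6% of all annotated genes. At a thresholded peak lay 5 (27.8%), against 1.45%. The same number, 5, were among the 415 highest regions of both replicates, against 0.629% of all genes. The median rank of those with a region was 561, and the ranks ran from 27 to 16870. The highest was sls-2.1 (chromosome II, 5844865 to 5844974), at rank 27 in the pooled list, 40 in replicate 1 and 38 in replicate 2. Next was sls-2.4 on chromosome I, at rank 31 pooled, 33 in replicate 1 and 45 in replicate 2. Both were among the 45 highest regions of every list. The gene sls-2.8 (chromosome III, 12250465 to 12250575) followed at rank 68 pooled, 90 in replicate 1 and 80 in replicate 2, with the start of a protein-coding gene, Y75B8A.23, at 211 bp from its summit. The neighbours sls-2.2 and sls-2.3 on chromosome II converge and had pooled regions at ranks 145 and 367 that overlap each other. In replicate 2 both genes were served by 1 region, at rank 250, while in replicate 1 they stood at 77 and 259. Thus the pair cannot be told apart in replicate 2. At sls-2.3 the replicates also gave different regions, with summits at -127 bp from the gene start in replicate 1 and 518 bp in replicate 2. Close below the threshold in the pooled list were sls-2.16 at rank 512, sls-2.9 at 561 and sls-2.7 at 605. In replicates 1 and 2 they ranked lower or apart: sls-2.16 at 1480 and 1178, sls-2.9 at 789 and 856, and sls-2.7 at 3233 and 490. A tRNA gene starts 70 bp from the summit at sls-2.9, so that region lies at both genes.

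The SL1 genes had no region. None of the 12 sls-1 genes had a summit within 500 bp in the pooled list, where 46.6% of all annotated genes had one. None had one in the list of replicate 1 or replicate 2. All 12 lie on chromosome V, and 10 of them are identical in sequence. From 150 bases before the gene to its end, a median of 0% of their 32-base words occur once in the genome, and at most 14.7%. The sls-2 genes have no identical copies, and a median of 90.8% of their words are unique. The sources used here do not say how reads that match several places were treated, so an unlisted SL1 gene and one hidden by repeated sequence cannot be told apart.

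**Figure D2:**
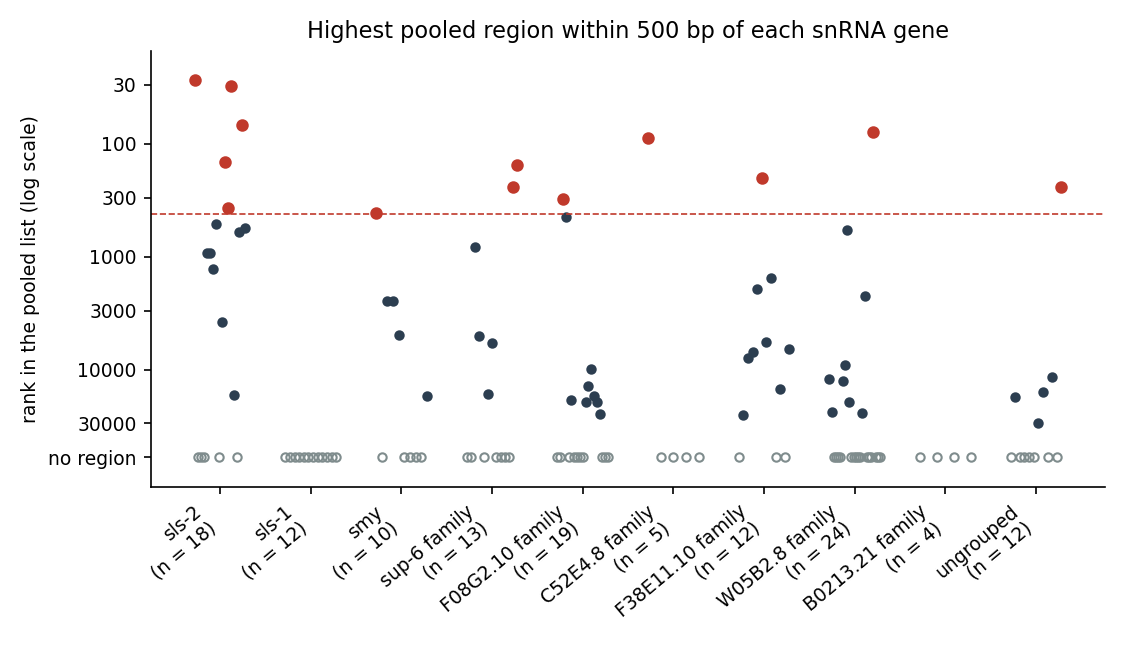
Each circle is an snRNA gene, placed by family on the horizontal axis and by the rank of its highest pooled region on a reversed log axis; open circles have no pooled region. Red circles above the dashed line are the 13 genes within the 415 thresholded peaks, 5 of them sls-2 genes, while all 12 sls-1 genes are open.

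Every other named family except B0213.21 had 1 or 2 genes at a thresholded peak, at a range of ranks. Over all annotated genes, 46.6% had a region and 1.45% were at a peak, the shares to set beside each family count. In the W05B2.8 family, 9 of 24 genes (37.5%) had a region and 1 (4.17%) was at a peak. This was W05B2.8 itself (chromosome III, 10989679 to 10989780), at rank 79 pooled, 106 in replicate 1 and 120 in replicate 2. It has 14 identical copies counting itself, but 65.6% of the 32-base words of its gene and upstream bases are unique. Another copy of that sequence, R07E5.16, ranked 2207 pooled, so identical gene bodies did not bring equal ranks. Below the threshold, F54D8.7 ranked 576 pooled, 1227 in replicate 1 and 587 in replicate 2.

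In the sup-6 family, 6 of 13 genes (46.2%) had a region, near the 46.6% of all annotated genes. At a peak were 2 (15.4%), against 1.45%. The gene sup-6 (chromosome II, 12944803 to 12944967) ranked 155 pooled, 119 in replicate 1 and 201 in replicate 2. The gene sup-39 (chromosome II, 6968394 to 6968558) ranked 240 pooled, 488 in replicate 1 and 326 in replicate 2. The annotation lists a 22-base gene, mir-1831, inside sup-39 with the same biotype, and it was served by the same region. The 13 genes at peaks thus rest on 12 regions.

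The C52E4.8 family had 1 gene of 5 (20%) with a region, and that gene was at a peak. This was C52E4.8 (chromosome V, 11980118 to 11980261), which ranked 88 pooled, 258 in replicate 1 and 70 in replicate 2. The start of snr-4, which encodes a core Sm protein of the splicing particles, lies 329 bp from the summit of that peak, so the peak serves both genes. In the F38E11.10 family, 9 of 12 genes (75%) had a region and 1 (8.33%) was at a peak, against 46.6% and 1.45% of all annotated genes. That gene, F38E11.10 (chromosome IV, 9444642 to 9444763), ranked 202 pooled, 123 in replicate 1 and 668 in replicate 2, and so was outside the 415 highest of replicate 2. Its family otherwise ranked from 1554 down to 25409.

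Among the 19 genes of the F08G2.10 family, 9 (47.4%) had a region, near the 46.6% of all annotated genes. At a peak was 1 (5.26%), against 1.45%. F08G2.10 (chromosome II, 13829305 to 13829491) ranked 307 pooled, 230 in replicate 1 and 518 in replicate 2. Its summit lay 425 bp downstream of the gene start and 369 bp from the start of the histone gene his-42. Its relative F08G2.11 was the first gene below the threshold, at rank 442 pooled, 2510 in replicate 1 and 387 in replicate 2. Of the 10 smy genes, 5 (50%) had a region, close to the share of all genes. Among them 1, smy-1 (10% of the 10), was at a peak with rank 413, next to the threshold. The replicates did not place smy-1 alike, at 3662 in replicate 1 and 544 in replicate 2, and its summit was 85 bp from the start of smy-2, which the annotation counts as a snoRNA gene.

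**Figure D3:**
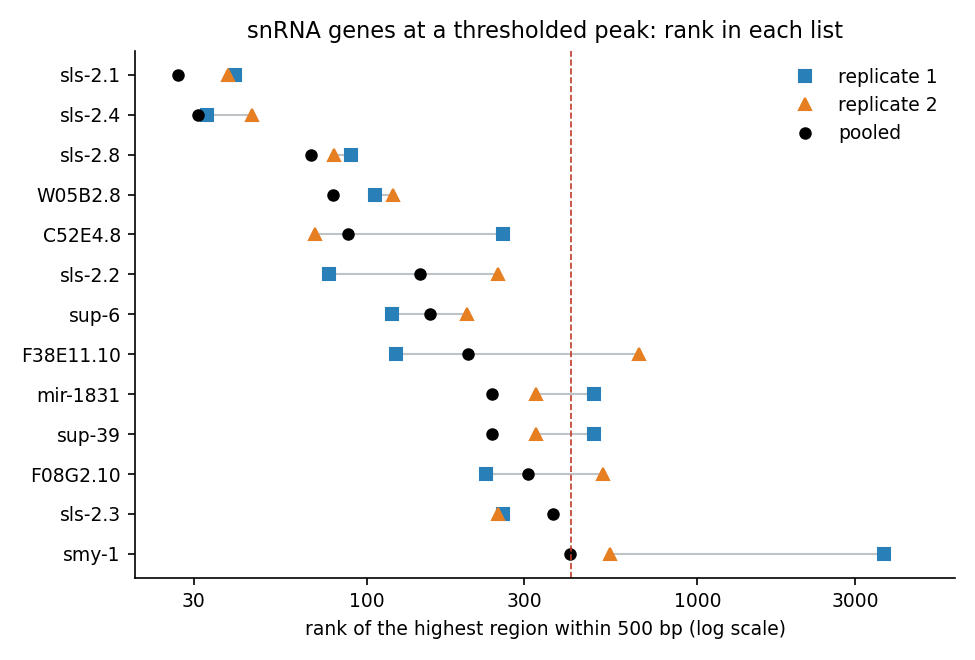
For the 13 snRNA genes at a thresholded peak, points give the rank of the highest region within 500 bp in the pooled list and in each replicate, on a log axis. The dashed line marks rank 415; 8 genes are left of it in both replicates, and smy-1 is farthest right at 3662 in replicate 1.

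In the pooled list, most summits at peaks lay at the promoters. Position was counted from the first base of the gene along its strand, with negative values upstream. Of the 13 genes at a peak, 10 had the summit from 100 bp before to 10 bp after the start, and their order by rank began with sls-2.1 at -50, sls-2.4 at -32, sls-2.8 at -16, W05B2.8 at -63 and C52E4.8 at -66. Further down were sls-2.2 at -55, sup-6 at -40, F38E11.10 at -37 and sup-39 at 9 bp. The summit at sup-39 is also that of mir-1831, and both genes are counted. The 3 exceptions were F08G2.10 at 425, smy-1 at 458 and sls-2.3 at 531 bp, and these were also the 3 lowest-ranked peaks. The region taken for sls-2.3, the highest within reach, lies nearer to sls-2.2. With summits within 200 bp, all 5 sls-2 genes stayed at a thresholded peak, so sls-2.3 has a closer peak too. Of the 44 genes with a region below the threshold, 10 had the summit in the same window and 24 had it more than 100 bp downstream. This window was chosen after the positions were seen. Summits can also move between replicates: at sls-2.8 the summit was at 44 bp in replicate 1 and -17 in replicate 2. In the same order it was at -48 and 157 for sls-2.2, 91 and -45 for C52E4.8, and 14 and -65 for sup-6. Each of these left the window in 1 replicate, as did sup-39, at 21 and 2. The summits of sls-2.1, sls-2.4, W05B2.8 and F38E11.10 stayed in it in both.

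**Figure D4:**
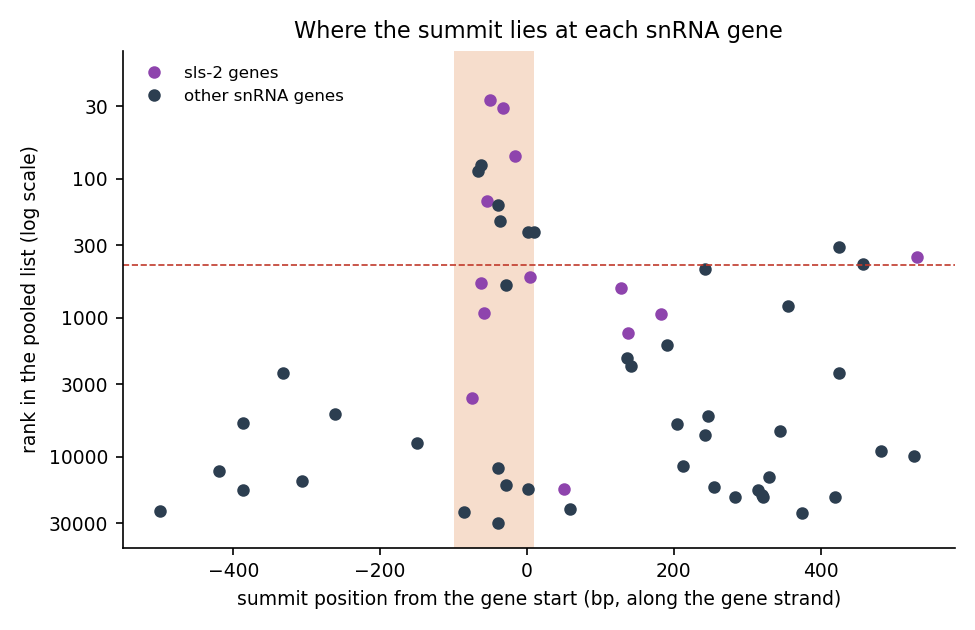
Each point is an snRNA gene with a pooled region, placed by the position of the summit from the gene start in bp and by pooled rank on a reversed log axis; the shaded band runs from 100 bp before to 10 bp after the start and the dashed line marks the threshold. Points above the line lie mostly in the band, 10 of 13, and points below it are spread over the whole search distance.

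The promoters share short patterns. Over 119 distinct windows of 150 bases before the snRNA genes, AACCCG was the 6-base word in the most windows when counted on the gene strand, in 42. On either strand it was in 43 (36.1%), against 2.52% of 46699 distinct windows before all annotated genes. The next, TGTCGG, was in 41 on the gene strand and in 41 (34.5%) on either strand, against 3.11%. With 1 base left free, as TGTCNG, the pattern was in 74 (62.2%), against 14.7%. AACCCG and TGTCGG were picked as words shared by many of these same windows, so some excess over all genes follows from the choice. Windows before related genes of a family are also not independent. TGTCNG contains every match of TGTCGG, and its first base on the gene strand was at a median of -48, where AACCCG was at -58. Both medians are over all snRNA windows. They lie within the span of the pooled summits of the highest peaks, though several of these summits move between replicates. The windows of sls-2.1, sls-2.4, W05B2.8, C52E4.8 and sls-2.2 did not hold AACCCG. At sls-2.8 it began at -59, while the pooled summit was at -16.

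The patterns did not mark only the genes at peaks. TGTCNG was in 11 of 13 windows at a peak, in 30 of 44 with a region below the threshold and in 33 of 62 with no region. AACCCG was in 6, 21 and 16 of the same windows. At peaks, the windows of sup-39 and mir-1831 overlap and hold the same site of each pattern, which is counted for both. By family, TGTCNG was in 17 of 18 sls-2 windows and in 3 of 4 distinct sls-1 windows, while only 2 of 10 smy windows held it. AACCCG was in 12 of 12 windows of the F38E11.10 family and in 0 of 18 of the F08G2.10 family. The third pattern, TATATAA, was in 19 (16.0%), against 4.84% of all windows. It was in 15 of 24 windows of the W05B2.8 family, at a median of -31, and in 1 of 13 at a peak, that of W05B2.8. A match is a description of the letters and no evidence of binding.

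**Figure D5:**
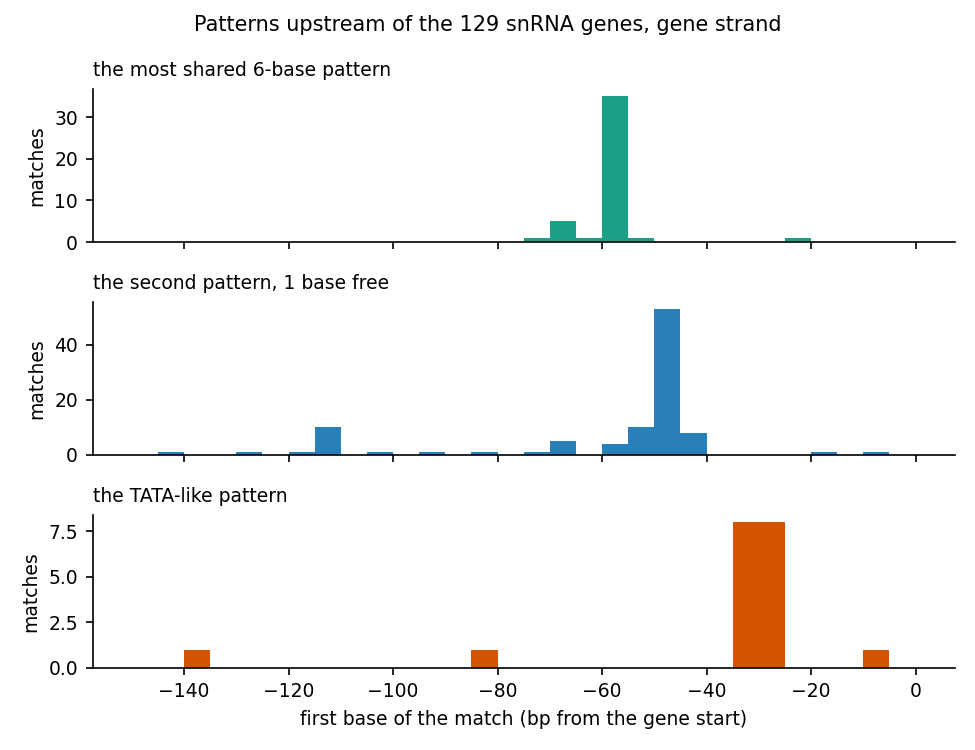
Histograms give, for the upstream 150 bases of the snRNA genes, how many matches on the gene strand begin in each 5 bp bin before the gene start: AACCCG above, TGTCNG in the middle and TATATAA below. The first 2 are most frequent near their medians of -58 and -48, and the third near -31.

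Composition and repetition also differed with region status. The median GC content of the 150 bases upstream was 52.7% at peaks, 47.0% for genes with a region below the threshold and 44.3% for genes without one. The median share of unique 32-base words was 71.2%, 75.4% and 56.1% in the same order. Under 50% were unique at 1 of 13, 13 of 44 and 31 of 72 genes. These medians mix families, and some families went the other way. The 12 sls-1 genes had a median upstream GC content of 60% and no region. The 4 genes of the B0213.21 family had a median of 100% unique words and no region in any list. The part of either measure in the ranks was not tested. A protein-coding gene started within 500 bp of the summit at 3 of 13 genes at a peak and 10 of 44 below the threshold. The same share over all peaks or all pooled regions is not given here, so these counts cannot be called many or few. Of the 72 genes without a pooled region, 20 had one in at least 1 replicate and 3 in both, with no rank better than 3876.

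Genes for proteins that make, pack or export snRNAs, or that belong to the splicing and trans-splicing particles, were searched as well. Of 72 listed genes of this kind, 65 were found by symbol, 35 (53.8%) had a region within 500 bp of the start, against 34.0% of protein-coding genes, and 2 (3.08%) were at a thresholded peak, against 1.58%. One was ints-4, a subunit of Integrator, the complex that trims the 3′ ends of snRNAs. It ranked 36 pooled, 59 in replicate 1 and 35 in replicate 2. The other was snr-4, at the peak it shares with C52E4.8. Below the threshold came ints-9, another Integrator subunit, at rank 469 pooled, 151 in replicate 1 and 3238 in replicate 2. Next was prp-8, a large protein at the heart of the spliceosome, at 497 pooled, 1163 in replicate 1 and 549 in replicate 2. After it came snrp-40.1, at 515 pooled, 805 in replicate 1 and 709 in replicate 2.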

How the data were processed

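Per the labels, the samples were whole L2 larvae assayed by ChIP-seq. The authors deposited narrowPeak lists: the seventh column is a peak caller score of unstated scale, and the ninth is a −log10 q-value, which was used only to check the files. Lists hold 23256 regions for replicate 1 and 30000 each for replicate 2 and the pool; neither aligner nor peak caller is named in the sources used here. Only ce11 lists were used, with positions counted from 1. In replicate 1, 22 of the 415 highest regions were mitochondrial and were kept.

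Genes came from Ensembl, names from RefSeq by WormBase ID (129 of 129 matched), sequence from WBcel235. Families were made with edlib and networkx at 75% identity for genes of at least 60 bases, by single linkage. No test compared groups: the design has 1 condition and 2 replicates. Shares have 95% Clopper-Pearson intervals from scipy 1.17.1, with pandas 2.3.3. The search was tested on simulated regions. The members, lists, identity cut, word length and patterns were chosen with earlier results of these data known. Named genes are all snRNA genes at a thresholded peak, the next 5, the top member of each family, and of the protein list those at a peak and the next 3; other genes named were chosen after their values were seen. Alternatives were other distances, the gene start only, nearest summits, other numbers of regions, each replicate alone, and leaving out genes near coding starts or with identical copies.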

Additional observations from a re-analysis of the deposited data

How the results depend on the processing

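Of 74 alternatives to the main counts and medians, 60 kept a count within 1.5 times, or a median within the replicate spread. With the upper 208 peaks only, 8 snRNA genes were at a peak, 6 were in replicate 2 and 5 in both replicates. With 830 regions, replicate 2 had 19 and the sls-2 genes 8. The median rank was 1745 with summits within 200 bp, and 4385 to 6665 with 1 replicate left out. The median summit position was -32 bp in the main search, -40 within 200 bp, -37 from the start only, -7 for the nearest summit, -45 for the upper 208 peaks, -16 for 830 regions and -20.5 to -17 with 1 replicate left out. The cause was not tested, except that a smaller number of regions holds fewer genes by construction. Of 117 alternatives to the family counts, 97 stayed within 1.5 times. The families with 1 gene at a peak lost it under some: C52E4.8 with the nearest summit, F08G2.10 and smy-1 within 200 bp, C52E4.8 and F08G2.10 without genes near a coding start, smy-1 with either replicate alone and F38E11.10 with replicate 2 alone. Leaving out genes with an identical copy removes C52E4.8, F08G2.10, F38E11.10 and W05B2.8. No paired analysis was possible because there is 1 group. Depth is unknown, so an absent region sets no upper limit on signal.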
